A study of Homo sapiens with 3 samples.

Results

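NPPA and NPPB are the genes of the cardiac natriuretic peptides, and they are described here as 2 of the 32738 gene rows of a single-cell count table, by day and by cell group. The study made chambered cardiac organoids (CCOs) from H7, an established human embryonic stem cell line, and dissociated them for droplet single-cell RNA libraries at day 8 (D8), day 14 (D14) and day 21 (D21). No CCO in these libraries was labelled with a drug or a genetic change, and each day is 1 library. The organoids were formed on day 7 and then kept in a growth medium (CGM) that contained thrombin, cardiotrophin-1, EGF, FGF-2, Wnt-3A and EDN1 (endothelin-1), and from day 14 they were kept in RPMI/B27 in a spinner flask. D8 and D14 cells therefore came from medium with EDN1 and D21 cells from a week without it, so that day, library and medium cannot be told apart. How many organoids were pooled in a library is not given in the sources used here.

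NPPA encodes the precursor of atrial natriuretic peptide and NPPB that of B-type natriuretic peptide, hormones that cardiomyocytes (CMs) secrete and that lower blood volume and pressure. Each precursor is cut outside or on the way out of the cell, by corin and furin among others, and the released peptide signals through the receptor guanylyl cyclase NPR1 to cyclic GMP, while NPR3 clears it. In the embryonic heart both genes are known as genes of the working chamber and trabecular muscle, and in the adult ventricle they are known to be switched on again by stretch, endothelin-1 and hypertrophic growth.

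The counts have to tell the transcripts of the 2 genes apart. The GENCODE transcripts NPPA-203 and NPPB-201 were little alike, since the longest exact run they shared was 9 bases, and 7 bases within the last 300, where reads of a 3′ library fall. A read from one was therefore unlike the other, although the genes lie next to each other on chromosome 1 with 0 protein-coding genes between them in RefSeq. The antisense gene NPPA-AS1 overlaps NPPA, the library kit keeps the strand, and NPPA-AS1 held 39 UMIs (unique molecular identifiers, which count captured mRNA molecules) in the cells kept for analysis.

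The NPPA promoter is shown because several regulators described with the results below are known to act on it. The 250 bases before the start are at chr1:11847784-11848033 of GRCh38.p14, on the minus strand, from RefSeq, and capitals mark letters that match a searched motif.
NPPA promoter: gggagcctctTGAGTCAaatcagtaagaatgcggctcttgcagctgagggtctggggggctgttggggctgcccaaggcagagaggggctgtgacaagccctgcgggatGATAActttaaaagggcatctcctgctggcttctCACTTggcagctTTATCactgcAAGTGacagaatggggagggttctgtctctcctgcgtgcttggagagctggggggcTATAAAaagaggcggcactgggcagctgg
The letters GATAA of GATA factors were found at 141 to 137 bases before the start and, on the other strand, at 95 to 91 bases. The letters AAGTG of NKX2-5 were found at 85 to 81 bases and, on the other strand, at 107 to 103 bases. The letters TGAGTCA of AP-1 were at 240 to 234 bases and TATAAA at 29 to 24 bases. Searched on both strands of 35116 RefSeq promoters of this length, GATAA was in 20.4%, AAGTG in 37.6%, TGAGTCA in 4.2% and TATAAA in 10.7%, so that each match is a description of letters and not of binding. The NPPB promoter was not analysed here.

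Of 17327 barcodes, 8188 had between 2000 and 7500 genes with less than 10% of UMIs from mitochondria and were kept, 2657 at D8, 3585 at D14 and 1946 at D21. Median depth was 15316, 12282 and 14105.5 UMIs per cell. The kept cells held 1115, 3108 and 3207 UMIs of NPPA and 4196, 1794 and 945 UMIs of NPPB at D8, D14 and D21. Cells were clustered without NPPA, NPPB and the other genes of the lists, except that CSRP3, which is also a cell type marker, was not left out. A cluster was called CM-like from a list of 8 markers (ACTC1, PLN, HSPB7, TNNC1, TNNI1, MYL4, MYBPC3 and CSRP3), which gave 479, 1106 and 538 CM-like cells. The summed CM markers were at 7110, 19506 and 43974 UMIs per 1000000 UMIs of the group (CPM) in CM-like cells and at 648, 1665 and 3897 CPM in the other cells. In the 3 libraries 33 barcode sequences of kept cells were found in more than 1, and those 66 cells held 37 UMIs of NPPA and 97 of NPPB.

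Among the CM-like cells of the 3 days, NPPA was highest at D21 and NPPB was highest at D8. Summed over the CM-like cells of a day, NPPA was at 103 CPM (95% interval 96.2 to 111) at D8, 169 CPM (163 to 176) at D14 and 350 CPM (337 to 364) at D21. NPPB was at 130 CPM (123 to 139) at D8, 48.5 CPM (45.0 to 52.2) at D14 and 108 CPM (100 to 116) at D21. NPPA was thus higher on each later day, while NPPB was lower at D14 than on either other day. The intervals, here and below, are exact and cover counting error only, since no day has a replicate library.

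As log2 ratios, NPPA was 0.71 (0.60 to 0.83) higher at D14 than at D8 and 1.05 (0.97 to 1.13) higher at D21 than at D14. NPPB had a log2 ratio of -1.43 (-1.57 to -1.29) from D8 to D14 and of 1.15 (1.00 to 1.30) from D14 to D21. The step of NPPB from D8 to D14 kept its sign under every alternative that was run. The other steps did not. With CMs chosen by a gate of 4 of 8 CM markers instead of by cluster they were -0.01 and -0.04 for NPPA and -0.05 for NPPB from D14 to D21. Over all cells of the day, NPPB from D14 to D21 was at -0.22. Without the highest 1% of cells, an alternative added after the data were seen, the NPPB steps were -3.69 and 2.87 and NPPA from D8 to D14 was 0.27, and at a clustering resolution of 0.4 the latter was 2.03. That gate was loose at D21, where only 211 of 825 cardiac fibroblast-like cells fell below it.

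Most CM-like cells held no NPPA and no NPPB, and a few cells held most of the UMIs. At D8, 126 of 479 CM-like cells (26.3%) had any NPPA, and 62 cells held 90% of its 802 UMIs. At D14, 240 of 1106 cells (21.7%) had any NPPA, and 76 cells held 90% of 2480 UMIs. At D21, 219 of 538 cells (40.7%) had any, and 62 cells held 90% of 2543 UMIs. The median was 2 NPPA UMIs among the cells with any on each day, while the highest cell had 79, 218 and 296 UMIs.

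NPPB was more concentrated still. At D8, 143 CM-like cells (29.9%) had any NPPB, and by D14 and D21 68 (6.15%) and 82 (15.2%) did. The cells that held 90% of its UMIs numbered 62, 14 and 23, and the highest cell had 188, 182 and 97 UMIs. The 10 highest cells held 57.8%, 87.5% and 77.8% of the NPPB UMIs of CM-like cells, against 46.0%, 47.5% and 63.0% of the NPPA UMIs.

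**Figure D1:**
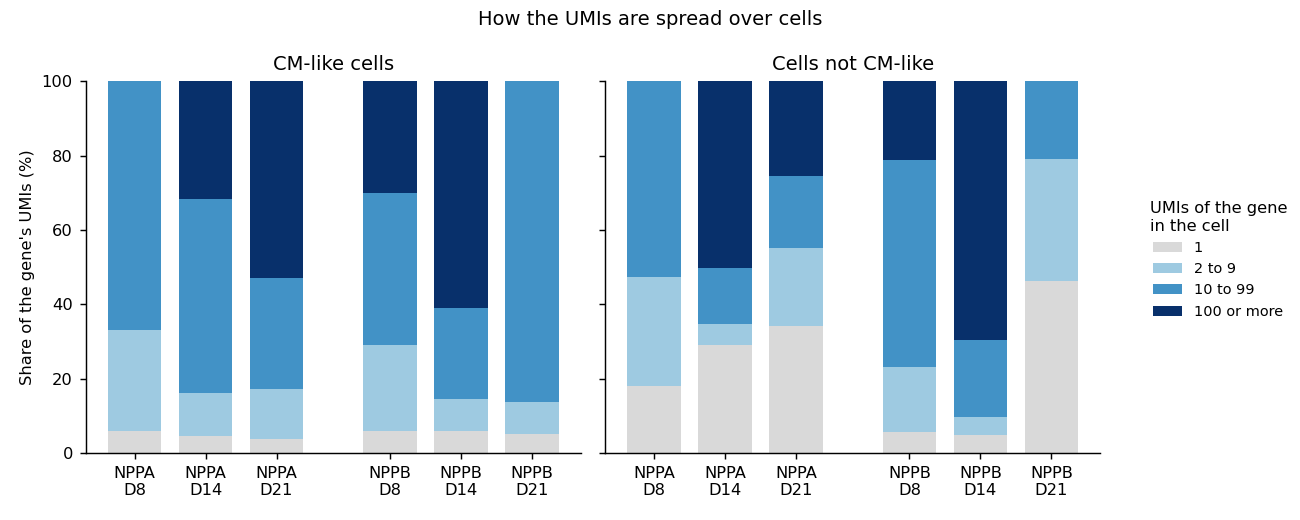
Share of the UMIs of NPPA and NPPB (%, stacked bars) that came from cells with 1, 2 to 9, 10 to 99 and 100 or more UMIs of the gene, by day, in CM-like cells (left) and in all other cells (right). In CM-like cells 3.81% to 6.05% of the UMIs came from cells with 1 UMI, while at D21 52.9% of the NPPA UMIs came from 7 cells with 100 or more, and outside the CM-like cells 46.3% of the NPPB UMIs at D21 came from cells with 1 UMI.

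The levels of a day therefore moved when single cells were left out. Without the highest cell of each day, an alternative chosen after the data were seen, NPPA was at 93.5, 155 and 310 CPM and NPPB at 106, 36.2 and 94.7 CPM, which keeps the order of the days for both. The share of CM-like cells with 10 or more UMIs of NPPA, also added after the data were seen, was 4.80% (23 cells), 4.52% (50) and 5.58% (30), close to equal on the 3 days with overlapping intervals of 3.07% to 7.12%, 3.37% to 5.92% and 3.79% to 7.86%. The same share for NPPB was 4.18% (20 cells), 0.723% (8) and 2.79% (15). Its interval at D14 (0.313% to 1.42%) lay below those of D8 (2.57% to 6.38%) and D21 (1.57% to 4.56%), while those of NPPA overlapped. These shares describe the cells of 1 library per day and cannot show a difference between days. The cells were not thinned here, and CM-like cells had median depths of 14444, 12218 and 12765.5 UMIs on the 3 days.

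The mitochondrial limit bore on the D21 cells. The bins below are of CM-like cells from a separate clustering with a limit of 20%, which called 480, 1274 and 1443 cells CM-like. They are therefore not the same set as the 479, 1106 and 538 CM-like cells used elsewhere. As CPM of the non-mitochondrial UMIs, NPPA in D8 CM-like cells was at 110 (102 to 119) with 0 to 5% mitochondrial UMIs and at 98.3 with 5 to 10%, and NPPB at 132 and 163. NPPA in D14 CM-like cells was at 88.5 in those with 0 to 5% mitochondrial UMIs, 258 in those with 5 to 10% and 281 in those with 10 to 20%, which the study's limit leaves out. At D21 the same 3 bins were at 192, 403 and 295. NPPB was at 31.7, 68.6 and 14.2 at D14 and at 64.1, 127 and 94.8 at D21. NPPA was thus lowest in the cells with the smallest mitochondrial share at D14 and D21 but not at D8. The D21 bin of 0 to 5% held only 21 cells, with 45 NPPA and 15 NPPB UMIs, against 358 cells with 5 to 10% and 1064 with 10 to 20%. Within the 0 to 5% bin NPPA was lower at D14 (81.4 to 96.1) than at D8, the reverse of the step over all CM-like cells. This bin held 539 cells at D14. Clustered anew with a limit of 5%, 442 cells at D8 and 340 at D14 were CM-like, and NPPA was higher at D14. The sign of the step among cells under 5% thus depended on the clustering that chose the CM-like cells. The part of the mitochondrial share in the day differences was not tested.

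Outside the CM-like cells the genes parted at D8. NPPA was at 8.03, 17.6 and 28.1 CPM and NPPB at 81.6, 30.4 and 6.85 CPM in all other cells at D8, D14 and D21. CM-like cells held 71.9%, 79.8% and 79.3% of a day's NPPA UMIs but 24.1%, 39.6% and 82.9% of its NPPB UMIs. Most NPPB of D8 and D14 was therefore outside the CM-like clusters, while at D21 both genes were mostly within them. At D14 this rested on 2 cells of cluster 8, with 469 and 171 of the 1083 NPPB UMIs outside the CM-like clusters, against 711 within. Without these 2 cells most NPPB of D14 was in CM-like cells.

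**Figure D2:**
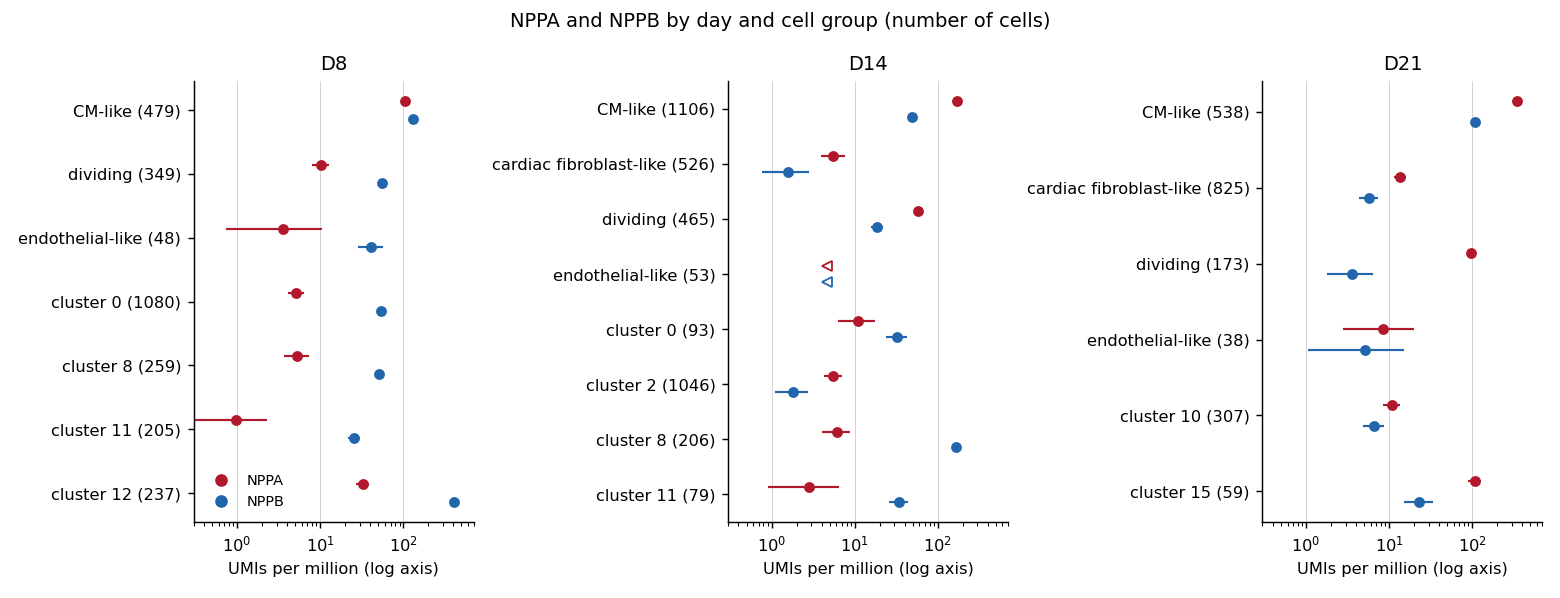
Level of NPPA (red) and NPPB (blue) in CPM on a log axis for each cell group of D8, D14 and D21, with the number of cells in brackets; points are summed levels, lines are exact Poisson 95% intervals and open triangles are the limit of 3 counts where no UMI was found. NPPB lies above NPPA in every D8 group, and NPPA lies above NPPB in every D21 group.

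At D8 the highest NPPB was in cluster 12, an unnamed cluster of 237 D8 cells that was led by NMB, DIO3, TMEM52 and IL11, with NDRG1 and MT2A. NPPB was at 403 CPM there, and its 1457 UMIs were 34.7% of the UMIs of the day. CM-like cells followed with 130 CPM. Dividing cells (54.6 CPM), cluster 0 (53.5 CPM, led by genes that include EBF2, TSHZ2 and HAND1) and cluster 8 (50.3 CPM, led by PRSS1, TTR, APOA2 and FOXA2) came next and did not differ beyond their intervals. Endothelial-like cells were at 40.6 CPM, but 1 cell held 33 of their 34 UMIs, and the level without it was 1.22 CPM. Cluster 11, led by SFRP2, POU5F1 and SOX2, was lowest at 25.6 CPM.

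NPPA had another order at D8. CM-like cells were highest at 103 CPM, cluster 12 followed at 32.6 CPM, or 19.2 CPM without its highest cell, and dividing cells at 10.1 CPM. In the dividing cells 1 cell held 59.2% of the UMIs and the level without it was 4.14 CPM, and the 24 dividing cells with CM markers were at 124 CPM against 2.43 CPM in the others. Cluster 8 (5.26 CPM), cluster 0 (5.16 CPM) and endothelial-like cells (3.58 CPM) did not differ beyond their intervals, cluster 8 was at 1.66 CPM without its highest cell, and cluster 11 was at 0.971 CPM. The groups outside the CM-like cells together held 10.2 NPPB UMIs for each NPPA UMI, against a log2 ratio of NPPA to NPPB of -0.34 in CM-like cells, so that the ratio between the genes and not only their level differed between groups of 1 library.

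At D14 NPPA was at 169 CPM in CM-like cells and 58.5 CPM in dividing cells. Within the dividing cells the 103 that passed the CM marker gate were at 240 CPM, or 143 CPM without the highest cell, and the 362 that did not were at 6.81 CPM. The other groups were low, with cluster 0 at 10.95 CPM, cluster 8 at 6.12 CPM, cardiac fibroblast-like cells at 5.53 CPM, cluster 2 (led by MFAP4, CTNNA2 and HOXB4) at 5.48 CPM and cluster 11 at 2.81 CPM. Endothelial-like cells held no UMI of either gene in 53 cells, which allows up to 4.67 CPM. NPPA in dividing cells at D14 was thus mostly in dividing cells with CM markers.

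NPPB at D14 was highest in cluster 8, and this level rested on a pair of cells. The cluster was at 167 CPM with 790 UMIs in 206 cells, of which 1 cell held 469 and another 171. Without the first it was at 67.9 CPM, and without both at 31.9 CPM (27.0 to 37.4). These cells held 2.78% and 0.87% of their UMIs as NPPB with 0 and 1 UMI of NPPA, and they had 7 and 8 of the 8 epithelial endoderm markers and 3 of the 8 CM markers each. They thus carried the epithelial markers of their cluster, and their doublet scores were 0.0694 and 0.0596.

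After cluster 8, CM-like cells were at 48.5 CPM of NPPB at D14. Cluster 11 was at 34.3 CPM, cluster 0 at 32.2 CPM and dividing cells at 18.8 CPM, and these 3 fell to 4.59, 2.81 and 4.95 CPM when the highest cell of each was left out. Cluster 2 (1.80 CPM) and cardiac fibroblast-like cells (1.56 CPM) did not differ beyond their intervals. In clusters 11 and 0 and in dividing cells NPPB at D14 was therefore mostly that of 1 cell, while cluster 8 without its 2 highest cells was near the 36.2 CPM of CM-like cells without their highest.

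At D21 NPPA and NPPB were both led by cells with CM markers. NPPA was at 360 CPM in CM-like cluster 5 and at 241 CPM in the smaller CM-like cluster 16, and the 36 D21 cells of the dividing cluster 7 were at 400 CPM. Without the highest cell of each these were at 316, 231 and 130 CPM, so that the place of cluster 7 rested on 1 cell with 68.4% of its UMIs. NPPA was at 107 CPM, or 53.9 CPM without the highest cell, in cluster 15, which was led by CXCL14 and MYL2, and at 13.6 CPM in cardiac fibroblast-like cells, 10.8 CPM in cluster 10 (led by SERPINA1, AMBP and APOA2) and 8.53 CPM in endothelial-like cells. The 118 dividing cells that passed the CM marker gate were at 147 CPM, or 61.5 CPM without the highest cell, and those below it were at 7.28 CPM. That gate did not mark CMs well at D21, where only 211 of 825 cardiac fibroblast-like cells fell below it. Only 54 of the 137 cells of dividing cluster 14, which also had 5 cardiac fibroblast markers raised, fell below it. Cluster 14 was at 20.4 CPM, and cluster 7 held 247 of the 289 NPPA UMIs of the dividing cells past the gate. The NPPB levels followed with 110 CPM in cluster 5, 82.3 CPM in cluster 16 and 23.2 CPM in cluster 15, and no other group was above 11.3 CPM.

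Low levels outside the CM-like cells may include free RNA in the droplets. At D21 the 8 hepatic markers, which led cluster 10, summed to 3414 CPM in CM-like cells while the rest of the library held 40597 CPM. How these UMIs came to be in CM-like barcodes was not tested. At D14 cardiac fibroblast-like cells held 3.55 NPPA UMIs per NPPB UMI and cluster 2 held 3.05, near the 3.49 of CM-like cells. At D21 fibroblast-like cells held 2.38 and CM-like cells 3.25. At D8 the log2 ratio was -3.38 in cluster 0 and -3.63 in cluster 12, against -0.34 in CM-like cells and -1.91 over the whole library. The part of free RNA in these levels was not tested.

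Cells with 1 gene and not the other were counted after each cell had been thinned to 4000 UMIs, so that depth was equal in all cells. Among CM-like cells at D8, 45 (9.39%) held NPPA alone, 45 (9.39%) held NPPB alone and 22 (4.59%) held both. At D14, 123 (11.1%) held NPPA alone, 17 (1.54%) NPPB alone and 15 (1.36%) both. At D21, 94 (17.5%) held NPPA alone, 23 (4.28%) NPPB alone and 24 (4.46%) both. The genes were thus found alone equally often at D8, and NPPA was the more frequent at D14 and D21.

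**Figure D3:**
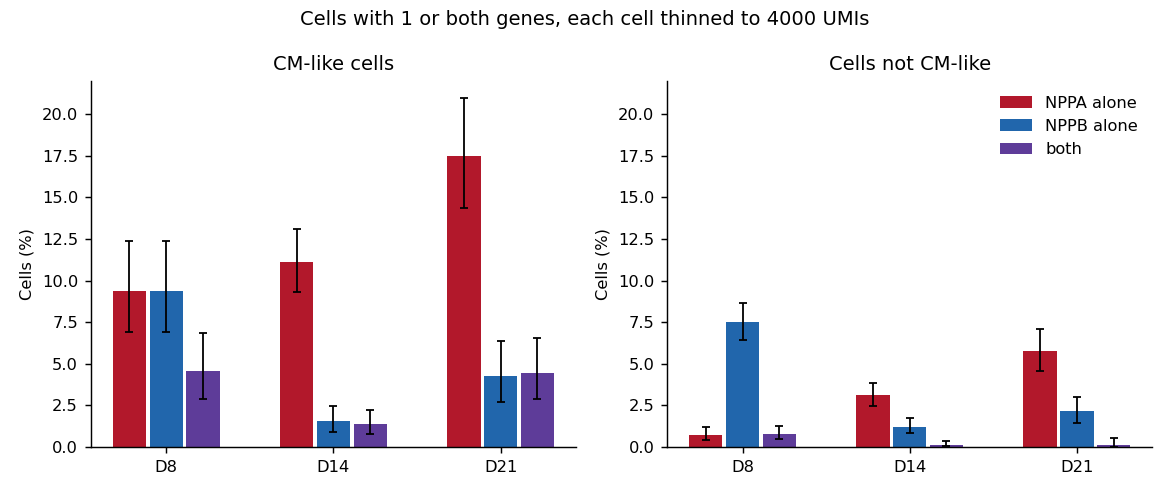
Share of cells (%, bars) with NPPA alone, NPPB alone or both after thinning to 4000 UMIs, by day, for CM-like cells (left) and all other cells (right); lines are exact Clopper-Pearson 95% intervals. NPPA alone goes from 9.39% to 17.5% of CM-like cells between D8 and D21, and outside the CM-like cells NPPB alone leads at D8 with 7.48%.

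A CM-like cell that held NPPA held NPPB more often than one that did not. At D8 NPPB was found in 32.8% of the cells with NPPA (22 of 67) and 10.9% of those without (45 of 412). The shares were 10.9% (15 of 138) and 1.76% (17 of 968) at D14, and 20.3% (24 of 118) and 5.48% (23 of 420) at D21. The direction was the same on the 3 days, and even so most cells with NPPA held no NPPB at this depth. Since 4000 UMIs miss most low transcripts, a cell listed with 1 gene may hold the other below detection.

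Outside the CM-like cells at D8 the order was different, with 16 cells (0.735%) holding NPPA alone, 163 (7.48%) NPPB alone and 17 (0.781%) both. There NPPB was found in 51.5% of cells with NPPA (17 of 33) and 7.60% of those without (163 of 2145). At D14 the shares were 3.75% (3 of 80) and 1.25%, and at D21 they were 2.41% (2 of 83) and 2.26%. The genes were thus found together outside the CM-like cells mainly at D8. Cardiac fibroblast-like cells, which should lack NPPA, held it after thinning in 3.99% of cells at D14 and 5.09% at D21, with median depths of 12844.5 and 12690 UMIs against 12218 and 12765.5 in CM-like cells, in which the share was 12.5% and 21.9%.

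Cells with many UMIs of 1 gene are less bound by the limit of detection. They were called high at 10 or more UMIs, a threshold chosen after the data were seen. Among CM-like cells at D8, 4 of 23 NPPA-high cells (17.4%) had 0 UMIs of NPPB, against 36 of 50 (72.0%) at D14 and 20 of 30 (66.7%) at D21. In the other direction, 5 of 20 NPPB-high cells had 0 UMIs of NPPA at D8, 1 of 8 at D14 and 2 of 15 at D21. Cells high in both numbered 8, 5 and 5. Summed over the cells, NPPB was at 600 CPM in NPPA-high cells against 48.0 CPM in cells with no NPPA at D8, at 437 against 6.67 CPM at D14 and at 634 against 14.7 CPM at D21. NPPA without NPPB was therefore common among high CM-like cells of D14 and D21, and NPPB without NPPA was uncommon on all 3 days. Over all CM-like cells of D8, D14 and D21, 70.1%, 93.9% and 84.8% had 0 UMIs of NPPB. For NPPA these shares were 73.7%, 78.3% and 59.3%. Cells high in either gene thus lacked the other less often than CM-like cells as a whole.

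The cells outside the CM-like clusters showed the opposite at D8. Of 65 NPPB-high cells, 47 (72.3%) had 0 UMIs of NPPA, and of 7 NPPA-high cells 0 had 0 UMIs of NPPB. Over all D8 cells outside the CM-like clusters, 96.0% had 0 UMIs of NPPA and 82.6% had 0 of NPPB. NPPA was at 141 CPM in the 65 NPPB-high cells and at 1.57 CPM in the cells with no NPPB. At D14, 6 of 12 NPPB-high cells had no NPPA, and at D21 only 2 NPPB-high cells were left. The 3 highest NPPA cells of D21, with 296, 295 and 272 UMIs, were CM-like, and each held 0 UMIs of NPPB.

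**Figure D4:**
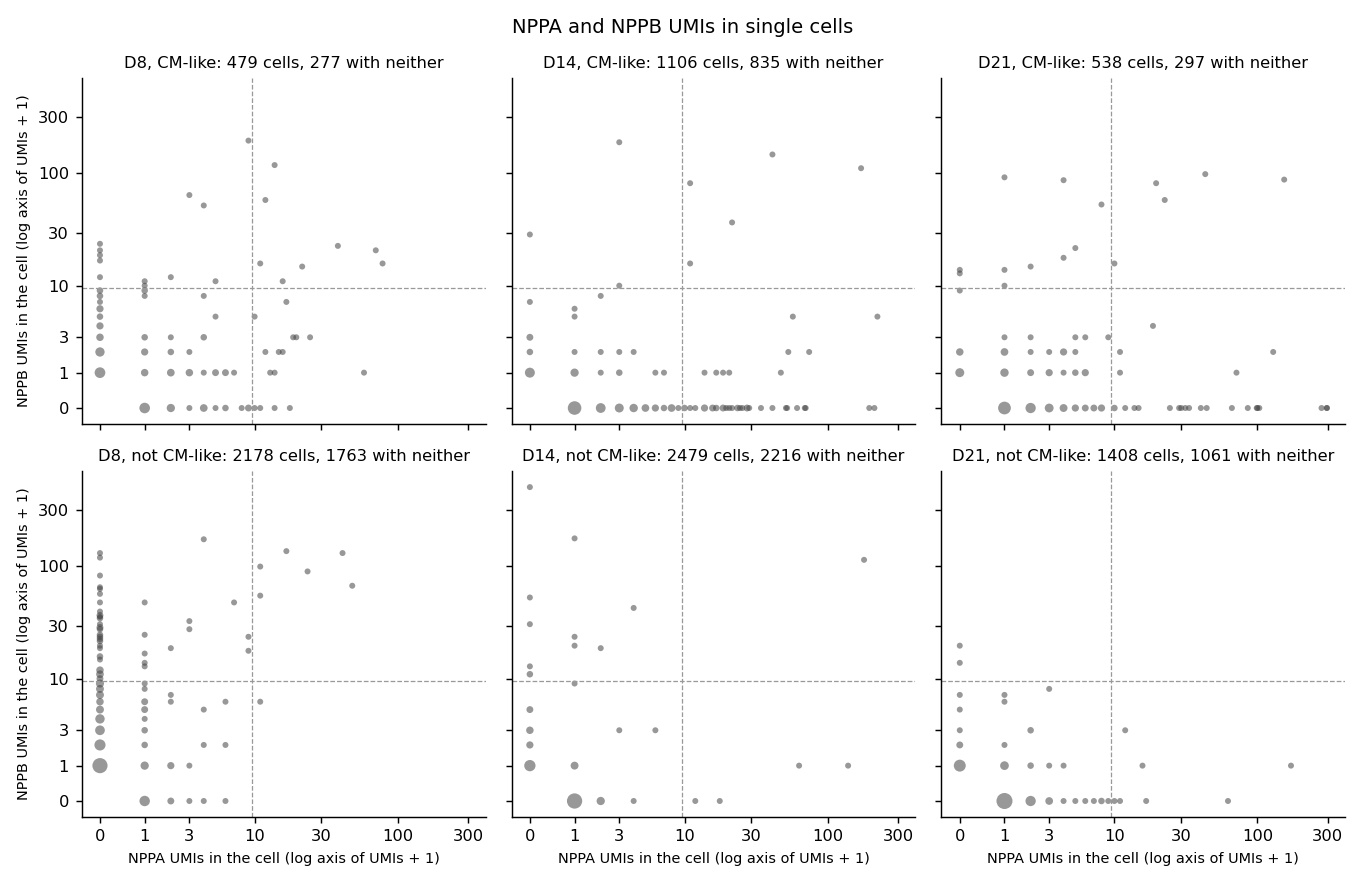
UMIs of NPPA (horizontal) and NPPB (vertical) in each kept cell that has either gene, on log axes of UMIs + 1, for CM-like cells (top) and all other cells (bottom) by day; larger points hold more cells and dashed lines mark 10 UMIs. High NPPA with no NPPB lies along the bottom of the D14 and D21 CM-like panels (36 and 20 cells), and high NPPB with no NPPA along the left edge of the D8 panel of other cells (47 cells). Over all cells of these groups, 93.9% and 84.8% held no NPPB and 96.0% held no NPPA.

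The CM-like cells with NPPA alone and NPPB alone at D8, 45 of each, differed in few genes. Of the genes at 50 CPM or more in either set, 0.964% were more than 2-fold higher and 0.764% more than 2-fold lower in NPPA-alone cells. Among the 8 with the largest ratios, which also held NPW, SEPT10, SPAG4 and PTTG1, were MYL3, a ventricular and slow muscle myosin light chain (305 against 85.2 CPM, log2 1.83), MYBPC3, a thick filament protein (1.65), XIRP1, an actin-binding protein of the intercalated disc (1.61), and MYL7, the atrial myosin light chain (6748 against 2295 CPM, log2 1.56). The lower ones were led by DIO3, the thyroid hormone-inactivating deiodinase, with 44 UMIs in the NPPB-alone cells and 0 in the NPPA-alone cells. PLAT (-2.25), ANXA1 (-1.96), the metallothionein gene MT2A (-1.93), NPY (-1.64) and the progenitor factor ISL1 (-1.35) were lower too. Of the hypertrophy and stretch list 1 of 6 measured genes was higher and of the chamber list 0 of 2. DIO3 and MT2A were also among the leading genes of cluster 12, but within cluster 12 DIO3 was lower in NPPB-high cells (22.3 against 266 CPM, -3.47).

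Some genes of hypertrophy and stretch were higher in the cells high for either peptide than in cells of the same group with 0 UMIs. The list of 12 holds ANKRD1, a stretch-responsive partner of titin, ACTA1, the skeletal actin of the fetal gene programme, CSRP3, a Z-disc mechanosensor that is also a CM marker, XIRP1, MYH7, FHL1, FHL2, RCAN1, CTGF and others. In NPPA-high cells 3 of 6 measured members were past 2-fold higher and 1 lower at D8 (of all measured genes 1.87% were higher and 0.703% lower). At D14 the counts were 5 of 9 and 0 (2.67% and 3.08% of all), and at D21 they were 3 of 8 and 0 (1.51% and 1.12%). In NPPB-high cells they were 4 of 6 and 0 at D8 (2.15% and 1.82%) and 6 of 9 and 0 at D21 (3.86% and 2.03%). At D14 only 8 CM-like cells were NPPB-high, under the 15 asked for. The NPPA-high and NPPB-high sets share the cells high in both, so the counts are not independent of each other.

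ANKRD1 was past 2-fold higher in each of these comparisons, and remained so without the high cell that held most of it (1.64, 2.73 and 1.94 for NPPA at D8, D14 and D21, and 2.30 and 3.16 for NPPB at D8 and D21). In NPPA-high cells it was at 288 CPM against 73.5 CPM in cells with no NPPA at D8 (log2 1.98), 1151 against 142 at D14 (3.02, or 1.55 against the cells at 0 as deep as the median high cell) and 1319 against 276 at D21 (2.26). By cell, ANKRD1 was found in 13 of 23, 36 of 50 and 28 of 30 NPPA-high cells, against 23.2%, 19.3% and 46.7% of the cells with none. In NPPB-high cells it was at 371 against 58.9 CPM at D8 (2.66) and 3402 against 332 at D21 (3.36). There 14 of 15 NPPB-high cells of D21 held it, with a median of 3161 CPM and a highest of 10548 CPM against a median of 0, and 1.32% of the cells without NPPB lay above that median. High cells were also deeper, with medians of 19722 against 14106 UMIs for NPPA at D8, 16277.5 against 11772 at D14 and 16748 against 12103 at D21. CPM scales for total UMIs and detection in a cell does not, but scaling does not make the sets of cells alike. Against cells at 0 as deep as the median high cell or deeper, 7 ratios of ANKRD1 and ACTA1 moved past their interval and 5 did not. The part of depth was not tested.

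**Figure D5:**
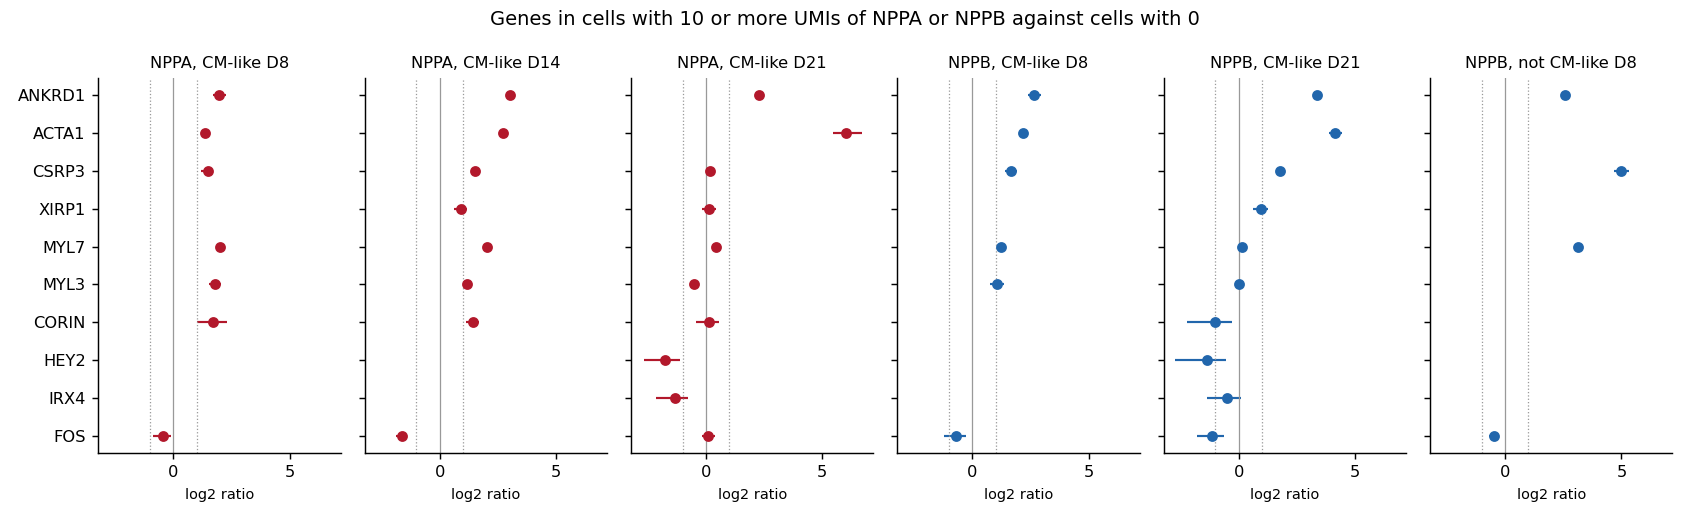
Log2 ratio of 10 genes in cells with 10 or more UMIs of NPPA (red) or NPPB (blue) over cells of the same group with 0; lines are exact 95% intervals, dotted lines mark 2-fold, and a gene below 50 CPM in both sets is not drawn. ANKRD1 lies right of the 2-fold line in all 6 panels, from 1.98 to 3.36, while MYL7 does so at D8 and D14 but not at D21.

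The ACTA1 ratios rested on few cells at D21 and on single cells in NPPB-high cells. It was at 896 against 349 CPM in NPPA-high cells at D8 (log2 1.36) and at 399 against 59.9 CPM at D14 (2.74). At D21 it was at 409 against 6.13 CPM (6.01), but only 4 of 30 NPPA-high cells held it, and the log2 ratio without the cell that held most was 2.95. In NPPB-high cells it was at 1746 against 387 CPM at D8 (2.18, or 0.95 without its highest cell) and at 707 against 39.9 CPM at D21 (4.15, or 1.11 without). ACTA1 in NPPB-high cells was therefore largely 1 cell on each of these days.

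Of the atrial, ventricular and chamber lists, 1 of 3, 1 of 1 and 0 of 2 measured genes were past 2-fold higher in NPPA-high cells at D8 with 0 lower. Of all measured genes 1.87% were higher and 0.703% lower. At D14 it was 1 of 2, 2 of 3 and 1 of 4 with 1 chamber gene lower (2.67% and 3.08% of all). The atrial light chain MYL7 was at 6843 against 1689 CPM at D8 (2.02) and 28745 against 6940 CPM at D14 (2.05). MYL3 had log2 ratios of 1.81 and 1.19, and CORIN, the protease that cuts the NPPA product, was at 52.9 against 16.5 CPM at D8 (1.72) and 139 against 51.6 CPM at D14 (1.44). MYH7, the slow myosin heavy chain, was higher at D14 (2.34). At D8, 22 of 23 NPPA-high cells passed the CM marker gate against 54.4% of CM-like cells with no NPPA, so that the CM markers as a whole were higher in NPPA-high cells on that day. At D14 the gate was passed by 100% against 96.3% and could not part the sets. By cell, the median of the CM gene TNNT2 was then 5159 against 1987 CPM and that of CSRP3 822 against 185 CPM. The part of a general difference in CM genes was not tested on either day.

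At D21 the NPPA-high cells differed in other genes. The compact ventricular genes HEY2 (29.1 against 103 CPM, -1.74) and IRX4 (36.3 against 96.1 CPM, -1.34) were lower, and TBX5, which is known to activate NPPA, was 1.01 higher. In NPPB-high cells of D21 HEY2 (-1.36), CDKN1C (-1.69), FOS (-1.14), FOSB (-1.26) and CORIN (37.2 against 83.2 CPM, -1.03) were lower. Higher there were IER3, an immediate early stress gene (342 against 54.3 CPM, 2.67, in 13 of 15 cells against 38.6%), FHL1 (1.87), CTGF (1.79), CSRP3 (1.77), the gap junction gene GJA1 (1.38) and MYH7 (1362 against 578 CPM, 1.24). CORIN thus had opposite signs beside high NPPA at D14 and high NPPB at D21, but these are also different days. Beside high NPPA at D21 its log2 ratio was 0.12. By cell, 8 of 15 NPPB-high cells of D21 (53.3%) held CORIN against 52.9% of the cells with no NPPB. The difference was not tested.

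The immediate early genes, which encode AP-1 and related factors, were past 2-fold higher in NPPA-high cells for 0 of 3 measured at D8, 0 of 5 at D14 and 0 of 6 at D21, and 3 of the 5 at D14 were lower. Of all measured genes 1.87%, 2.67% and 1.51% were higher on the 3 days and 0.703%, 3.08% and 1.12% lower. With so few measured, 0 higher is near the share of all genes. In NPPA-high cells of D14 FOSB was at 7.55 against 99.6 CPM (-3.53), FOS at 171 against 531 CPM (-1.62) and EGR1 at -1.20, with HAND2 at 63.6 against 239 CPM (-1.89). At D8 the 1 lower gene of the hypertrophy and stretch list was CYR61, a target of the stretch-responsive YAP pathway, at -1.04.

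The NPPB-high cells outside the CM-like clusters at D8 held CM transcripts. Of the 65, 19 (29.2%) passed the CM marker gate, against 51 of 1799 (2.83%) with no NPPB. In cluster 0 it was 8 of 18 against 22 of 944, in cluster 12 8 of 30 against 12 of 146, and in cluster 8 at D14 0 of 8. Cells that did not pass the gate still held NPPB at 61.5 CPM (59.0 to 64.1) over all the D8 cells outside the CM-like clusters, at 359 CPM in cluster 12 and at 32.3 CPM in cluster 0. NPPB at D8 was thus present both in cells with CM markers outside the CM-like clusters and in cells below the gate.

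Beside NPPB in these 65 cells, 5 of 6 measured hypertrophy and stretch genes were past 2-fold higher and 0 lower (5.23% and 1.26% of all measured genes). CSRP3, which is also a CM marker and was not left out of the clustering, had a log2 ratio of 4.99. The atrial calcium pump regulator SLN had 3.44, MYL7 3.13 (927 against 106 CPM), ANKRD1 2.58 (391 against 65.6 CPM, or 1.91 without its highest cell), CTGF 1.65 and FHL2 1.65. CYR61 of the same list was at 1.30. Of the immediate early and stress genes 3 of 8 measured were higher and 0 lower against the same shares of all genes (5.23% and 1.26%), namely MYC at 2.20, ATF3 at 1.75 and JUN at 1.14. In cluster 12 alone, 2 of 6 measured hypertrophy and stretch genes were higher and 0 lower (3.67% and 0.742% of all), and ANKRD1 was at 775 against 113 CPM in 30 NPPB-high cells (2.77). In cluster 0 it was 2 of 6 and 0 (16.2% and 3.77% of all). Of the factors known at the NPPA and NPPB promoters, 3 of 6 measured were higher there and 0 lower, against the same shares of all. They were MEF2C (476 against 153 CPM, 1.66), GATA4 (52.9 against 16.1 CPM, 1.84) and NKX2-5 (159 against 75.3 CPM, 1.12). The 18 NPPB-high cells of cluster 0 were shallower than the cells with none (median 10059.5 against 13572.5 UMIs). Of these 18, 8 passed the CM marker gate against 22 of 944 with none, and the part of CM markers was not tested. ANKRD1 was thus higher beside NPPB in the pooled cells outside the CM-like clusters and in cluster 12, as in the CM-like ones. Cluster 12 gave 30 of the 65 NPPB-high cells but only 146 of the 1799 cells with no NPPB. The pooled ratios therefore also carry differences between clusters, and the part of these was not tested.

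The rest of the natriuretic pathway was low in CM-like cells. Of the other ligands NPPC, the C-type peptide, had levels of 8.2, 0.8 and 0.1 CPM over the 3 days. None of the 3 receptors reached the 10 CPM asked of a measured gene, with NPR1 at 2.1, 0.3 and 0.6 CPM, NPR2 at 2.6, 3.1 and 2.3 CPM and NPR3 at 0, 2.9 and 1.0 CPM. The receptors were found elsewhere, with NPR3 at 3.1, 40.8 and 18.1 CPM and NPR1 at 1.2, 0.8 and 20.3 CPM in the other cells. NPR3 was thus at a higher level in the other cells than in CM-like cells on each day.

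Among the 6 processing genes, 3 were measured between D8 and D14, of which 1 was past 2-fold higher and 0 lower (of all measured genes 10.3% and 2.26%). It was CORIN, at 17.8, 61.7 and 79.3 CPM on the 3 days. Between D14 and D21, 0 of 3 were higher and 1 lower (5.04% and 15.0% of all), which was FURIN with 39.7 and 18.5 CPM. The median log2 ratio of all measured genes was 0.05 for the first step and -0.18 for the second. CORIN and NPPA had the same order of days, and NPPB did not.

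The factors known to act on the NPPA and NPPB promoters were a list of 11. Past 2-fold higher at D14 were 3 of 9 measured, HAND2, TBX2 and TBX3, and 0 were lower (10.3% and 2.26% of all). Between D14 and D21 TBX5 was higher (8.7 to 29.7 CPM) and MEF2C lower (472 to 72.6 CPM, log2 -2.70), 1 each of 10 (5.04% and 15.0% of all). NKX2-5, the homeobox factor of the heart field, was at 269, 530 and 378 CPM, and GATA4 at 58.5, 90.6 and 88.6 CPM. SRF was at 21.6, 35.4 and 58.5 CPM, and REST, a repressor of both peptide genes, at 89.5, 81.9 and 73.8 CPM. In order of days TBX5 and SRF were like NPPA, and none of these was, like NPPB, lowest at D14.

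Hypertrophy and stretch genes were past 2-fold higher for 8 of 10 measured and lower for 1 between D8 and D14, where 10.3% of all genes were higher and 2.26% lower. Between D14 and D21, where 5.04% of all were higher and 15.0% lower, 3 of 10 were higher and 0 lower. Ventricular genes were higher for 3 of 3 measured in the first step and for 5 of 6, with 1 lower, in the second. Atrial genes were higher for 1 of 4 and then for 2 of 4 with 2 lower, and chamber and trabecular genes for 4 of 6 and then for 3 of 8 with 3 lower. The medians were 1.44 and -0.38 for the hypertrophy list and 2.93 and 3.99 for the ventricular list. Hypertrophy genes were therefore mostly higher in the step in which NPPB was lower.

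The genes most like NPPA over 24 sums of day and cell group, by Pearson's r of log2 levels among 9734 genes, were XIRP1 (0.951), ASB2 (0.938), NEXN (0.932), SYNPO2L (0.929) and LMOD1 (0.926), which are known as muscle genes. Those most like NPPB were PAWR (0.784), PARD6B (0.767), TIPARP (0.744), ZBTB43 (0.743) and LRPPRC (0.739), none of which is known as a sarcomere gene. NPPA and NPPB had an r of 0.370 with each other, rank 2464 for NPPA and 892 for NPPB. The 24 sums share 3 libraries and their depths, and the values are a description. By this measure the neighbouring genes were far from each other's most similar gene.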

How the data were processed

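The authors deposited 1 table of UMI counts, with a row for each gene and a column for each barcode, and a check found only whole numbers in it. The submitters' processing notes name Cell Ranger, Seurat 3.2.1 and the build hg19. The kit was Chromium Single Cell 3′. No coordinates of the counts were used, and the printed promoter is of another build. Each column name gave the day of its cell.

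Cells were kept between 2000 and 7500 genes and below 10% of mitochondrial UMIs, both limits excluded, as in the methods of the study. Seurat 5.3.0 in R 4.3.3 log-normalized to 10000 and took 2000 variable genes, from which the listed genes that are not cell type markers were left out. It used 20 principal components and clustered at a resolution of 0.8, with no integration. A cluster took the name of a class that had 3 or more of its markers raised by 2-fold over other cells of the day, with 10 CPM added to each level. The class also had to lead the next class by 2 or more markers. No other class could have more markers among the leading genes of the cluster, and a shallow cluster needed a marker there. Otherwise the cluster stayed unnamed. Scrublet (scanpy 1.11.5) gave each cell a doublet score, no cell was removed by it, and the highest 5% of scores were left out in an alternative. CPM is UMIs of the gene per 1000000 UMIs summed over the cells of a group, with exact Poisson intervals, and shares have Clopper-Pearson intervals. A gene was measured at 10 CPM or more in either day, or at 50 CPM or more in either set of cells within a day, and was called at 2-fold or more with 1 count added. Thinning to 4000 UMIs used a fixed seed. Python 3.11.15, numpy 2.4.6, scipy 1.17.1, pandas 2.3.3, matplotlib 3.10.9 and edgeR 4.0.16 (TMM factors) were used, and the steps were tested on simulated data.

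With 1 library per day, no p-value was computed. The members, lists and comparisons were chosen with earlier results of these data known. The genes named are the members, the genes of the lists and the leading genes by size of the ratio. Alternatives were other mitochondrial limits, resolutions, cell choices, scalings, thinning and minimum UMIs.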

Additional observations from a re-analysis of the deposited data

How the results depend on the processing

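With 1 library per day, depth limits single cells and not sums, and no paired analysis was possible because the days share no replicate. The 13 values of CM-like cells (4 log2 ratios between days and 9 shares of cells) moved by less than their counting interval when all variable genes were kept and when the highest 5% of doublet scores was left out, and so did the 4 ratios without mitochondrial genes. The other alternatives moved the values below, and the cause was not tested. For NPPA from D8 to D14 (0.71) the log2 ratio was 0.43 with a mitochondrial limit of 5%, 2.03 at a resolution of 0.4, 1.25 at a resolution of 1.2, -0.014 with the CM marker gate, 1.38 over all cells and 0.36 as the mean of per-cell CPM. For NPPA from D14 to D21 (1.05) it was 0.65 with a limit of 20%, 0.53 at a resolution of 1.2, -0.036 with the gate, 0.75 over all cells, 1.28 with TMM, 1.32 with median of ratios and 1.37 as the mean per cell. For NPPB from D8 to D14 (-1.43) it was -1.63 with a limit of 20%, -0.94 at a resolution of 1.2, -2.65 with the gate, -1.11 with the lowest group subtracted and -1.84 as the mean per cell. For NPPB from D14 to D21 (1.15) it was 0.35 with a limit of 5%, which left 36 CM-like cells at D21, 0.70 at a resolution of 1.2, -0.048 with the gate, -0.22 over all cells, 1.38 with TMM, 1.43 with median of ratios and 1.33 as the mean per cell. Chosen after the data were seen, leaving out the highest 1% of cells gave 0.27, -3.69 and 2.87 for NPPA from D8 to D14 and NPPB in both steps, and the share of cells with 10 or more UMIs gave -0.087 and 0.30 for NPPA and -2.53 and 1.95 for NPPB. A resolution of 0.4 called 1797 cells CM-like at D8.

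Of the shares, both at D21 was 8.33% with a limit of 5%, NPPA alone and both at D8 were 3.17% and 2.003% at a resolution of 0.4, and NPPA alone at D14 was 15.4% at a resolution of 1.2. With the gate, NPPB alone was 13.3% at D8, NPPA alone 8.86% at D14 and 10.7% at D21, and both 1.70% at D21. With 2 or more UMIs asked for, NPPA alone, NPPB alone and both were 5.85%, 3.97% and 2.09% at D8, 5.61%, 0.633% and 0.542% at D14, and 8.74%, 2.60% and 0.929% at D21. Unthinned, NPPB alone and both were 15.9% and 14.0% at D8, the 3 shares were 18.4%, 2.80% and 3.35% at D14, and NPPA alone and both were 29.6% and 11.2% at D21. For ANKRD1 and ACTA1 in high cells, 41 of 42 values under alternatives added later were above 0 and 37 past 2-fold, but 28 had moved, with all 12 ratios changed by leaving out the high cell with most of the gene, and ACTA1 beside NPPB outside the CM-like cells at D8 was 0.58, or -0.15 without its highest cell.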
